A study of Mus musculus with 2 samples.

Results

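The adenosine deaminases acting on RNA are 3 genes in the mouse, *Adar*, *Adarb1* and *Adarb2*. They were taken by symbol from the 32285 genes of the count matrices, and all 3 were found. Nuclei of the hippocampus were sequenced in 2 libraries, PS19 and PZKO. PS19 mice are hemizygous (+/-) for a transgene for human tau with the P301S mutation, which the promoter of the prion protein gene drives. They have both copies of *Zbp1* (PS19+/- *Zbp1*+/+). PZKO mice carry the same transgene and lack *Zbp1* (PS19+/- *Zbp1*-/-), so both groups have tauopathy and neither is a healthy control. Each library pools the hippocampi of 5 males aged 9 months, and no label ties a nucleus to an animal. With 1 library per genotype, no difference between genotypes has a replicate check and no test was made.

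ADAR enzymes bind double-stranded RNA and turn adenosine into inosine, which the cell reads as guanosine. ADAR, encoded by *Adar*, edits long duplexes in many tissues, and its interferon-inducible isoform has a Z-RNA-binding domain of the kind found in ZBP1, a sensor of Z-form nucleic acids. ADAR2, encoded by *Adarb1*, recodes transcripts of neuronal receptors such as the glutamate receptor subunit *Gria2*. ADAR3, encoded by *Adarb2*, has no known editing activity, and its gene is a common marker of interneurons that arise in the caudal ganglionic eminence. The counts give transcript levels. They show neither isoforms nor edited bases.

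The PS19 library held 11469 nuclei and 116488513 unique molecular identifiers (UMIs, the counted RNA molecules), and the PZKO library 10920 nuclei and 171167884 UMIs. The median of UMIs per nucleus was 5642 in PS19 and 8342.5 in PZKO, and 47 barcodes were present in both libraries. After filters, 9590 and 9307 nuclei remained, in 13 classes named from marker genes, so that a class name stands for nuclei that are like that cell type. Over all nuclei *Zbp1* had 92 UMIs in PS19, against 38 in PZKO. These 3′ counts may come from outside the deleted part, so they do not check the genotype labels. Ribosomal protein genes, summed, were lower in PZKO by a log2 ratio of -0.54, and the choroid plexus gene *Ttr* stood at 413 UMIs per 1000000 (CPM) in PS19 and 57.9 CPM in PZKO over all nuclei. The part of these differences in the values below was not tested.

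*Adar* (ENSMUSG00000027951) lies on the plus strand of chromosome 3 at chr3:89715022-89753446 of mm10 and spans 38.4 kb. Its position overlaps *Chrnb2* on the opposite strand, and whether the counting used strand is not given in the sources used here. *Adarb1* (ENSMUSG00000020262) lies on the minus strand at chr10:77290726-77418270 and spans 127.5 kb. *Adarb2* (ENSMUSG00000052551) lies on the plus strand at chr13:8202866-8768747 and spans 565.9 kb. The genes differ in length, so their levels are set against each other only per kb. Per kb of gene body, over all nuclei, *Adar* was highest, with 2.29 CPM per kb in PS19 and 2.60 in PZKO. *Adarb2* followed with 1.34 and 1.23 CPM per kb. *Adarb1* was lowest with 0.931 and 1.06 CPM per kb. Per kb of exon the order was another, with *Adarb2* highest at 57.7 and 53.2 CPM per kb, *Adar* at 10.8 and 12.3 and *Adarb1* at 10.5 and 11.99. Which length fits better is not settled, since the sources used here do not say whether intronic reads were counted. The libraries are 3′ libraries, so counts need not grow with either length. Neither order is read as an order of expression.

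RefSeq lists 5 promoter windows for the 3 genes (GRCm38.p6, 250 bases before to 50 after a start site), of which 3 belong to *Adar*. None of the 5 held 2 copies of GAAA separated by any 2 bases, on either strand, the core of the interferon-stimulated response element. This core was present in 3.44% of all 32851 windows. A shorter core, GAAA and GAA separated by any 2 bases, chosen after that search had come back empty, was present in 8.56% of all windows and in 1 of the 5. That window is shown because it lies within *Adar*, the member whose level differed between interferon-responsive and other microglia. It spans chr3:89730468-89730767 on the plus strand, inside the gene body, and capitals mark the matches at bases 2 to 10 and 284 to 292, counted from the 5′ end of the window. A match of letters is not evidence that a factor binds there. Only spacers of 2 bases were searched, so the empty search does not speak to other forms of the element.
Adar promoter window: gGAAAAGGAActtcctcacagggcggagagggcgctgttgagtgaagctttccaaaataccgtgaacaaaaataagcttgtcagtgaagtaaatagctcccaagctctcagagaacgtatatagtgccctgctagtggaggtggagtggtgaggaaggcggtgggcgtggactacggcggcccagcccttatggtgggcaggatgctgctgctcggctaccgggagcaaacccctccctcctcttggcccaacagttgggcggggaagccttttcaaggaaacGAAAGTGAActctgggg

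*Adar* was present in all 13 classes within a narrow range. Inhibitory neurons had the highest level, with 109 CPM in PS19 and 127 CPM in PZKO. Excitatory neurons followed with 97.8 and 107 CPM. Microglia, the resident macrophages of the brain, had 90.7 and 102 CPM, which overlapped the excitatory range over both libraries. By their ranges over both libraries, these 3 classes stood above all others. The counting intervals of microglia (80.7 to 101.6 CPM) and endothelial nuclei (66.4 to 101.5 CPM) overlapped in PS19 but not in PZKO. T cells rested on 3 and 6 UMIs and Cajal-Retzius nuclei on 10 and 15. Their upper limits in PS19 were 154.5 and 120.7 CPM. Endothelial nuclei had 82.6 and 74.3 CPM, and astrocytes 61.5 and 65.8 CPM. The lowest levels were those of oligodendrocytes, with 32.8 and 35.6 CPM, and of ependymal nuclei, with 35.4 and 23.5 CPM. The mean of the libraries differed 4.0-fold between the highest and the lowest class. Of the 12 pairs of neighbours in the order of classes, 7 had ranges that overlapped.

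*Adarb1* was led by neurons as well. Its level was 155 CPM in PS19 and 163 CPM in PZKO in inhibitory neurons and 146 and 160 CPM in excitatory neurons, which overlapped. At a clustering resolution of 0.5 these ranges no longer overlapped, with 257 and 292 CPM in inhibitory and 119 and 123 CPM in excitatory neurons. Choroid plexus epithelial nuclei came next with 114 and 120 CPM, a class that had a middle rank for *Adar*. The excitatory range at a resolution of 0.5 overlapped this choroid plexus range of the main clustering. A cluster of 57 and 72 excitatory nuclei, led by *Synpo2* and *Tcf7l2*, supplied 21.2% and 27.0% of the *Adarb1* UMIs of its class. Glia were low. Microglia had 54.0 and 58.8 CPM of *Adarb1*, and astrocytes 33.5 and 31.6 CPM. Oligodendrocytes had the lowest level of *Adarb1*, with 13.6 and 12.9 CPM, and the highest class exceeded them 12-fold in the mean of the libraries. Overlap with the next class was found for 7 of the 12 pairs of neighbours.

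*Adarb2* had the widest range of levels. It stood at 3428 CPM in PS19 and 3007 CPM in PZKO in inhibitory neurons. Oligodendrocyte precursors were second with 2080 and 2018 CPM, followed by excitatory neurons with 566 and 425 CPM. Pericytes or mural nuclei had 130 and 74.4 CPM, from 50 and 37 UMIs, of which 26 and 29 came from 1 nucleus each. Without that nucleus the levels were 65.2 and 16.9 CPM, a range that overlaps oligodendrocytes. The ranges of the first 3 classes did not overlap with each other. Mature oligodendrocytes, which arise from the precursors, had 32.7 and 52.5 CPM of *Adarb2*. Low levels were seen in astrocytes (5.31 and 5.33 CPM) and microglia (4.58 and 7.12 CPM). In choroid plexus nuclei the 70 UMIs of PZKO included 66 from 1 nucleus, and without it the level was 3.22 CPM, beside 3.47 CPM in PS19. T cells had 0 and 1 UMIs of *Adarb2* in 28 and 32 nuclei, and a count of 0, with 3 counts taken as its upper limit, allows a level of up to 52.9 CPM in PS19.

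**Figure D1:**
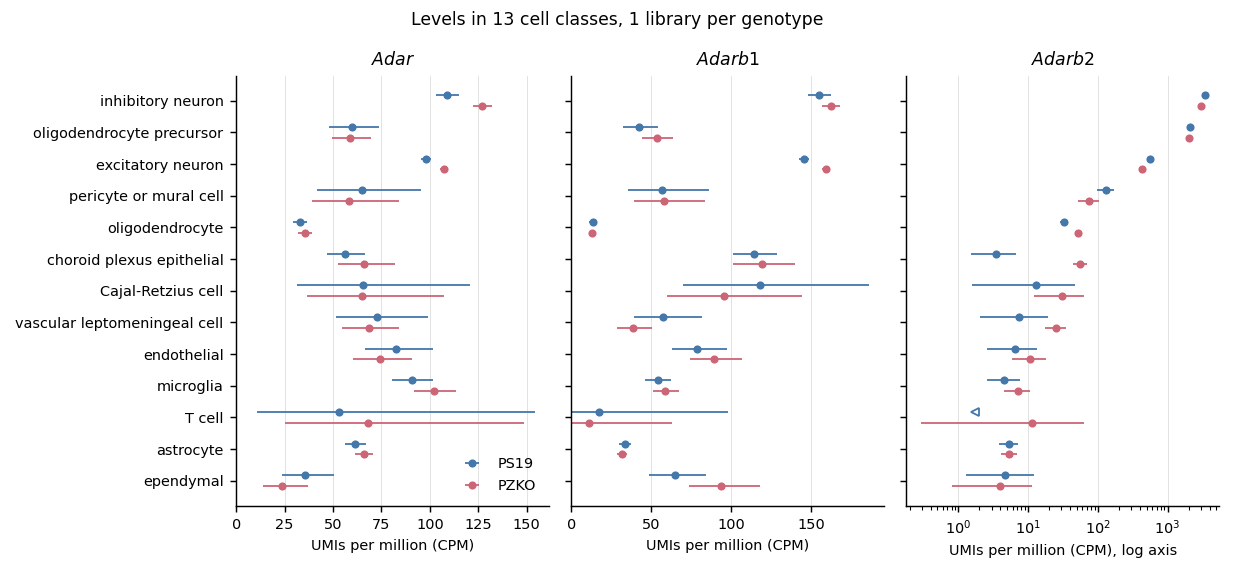
Levels of the 3 genes in CPM in 13 cell classes, with the PS19 library in blue and the PZKO library in red. Points are the level of 1 library, bars are 95% Poisson intervals, and the open triangle marks T cells of PS19, with 0 UMIs. The *Adarb2* axis is logarithmic, and inhibitory neurons, at 3428 and 3007 CPM, lie furthest to the right.

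Shares of nuclei were compared after each nucleus had been thinned to 2000 UMIs, since classes differed in depth. *Adarb2* was then found in 92.9% of oligodendrocyte precursors in PS19 (95% interval 88.5 to 96.0) and in 90.4% in PZKO (85.6 to 94.1), with 3 nuclei left out of each. Without thinning these shares were 99.1% and 97.2%, at a median depth of 6797 and 10326.5 UMIs. In inhibitory neurons the share was 36.8% and 32.0%, with 5 and 1 shallower nuclei left out, and 44.7% and 42.9% without thinning. The level of *Adarb2* in inhibitory neurons was thus higher than in the precursors, yet came from a smaller share of nuclei. Microglia, with a low level of the gene, gave 0.849% and 1.72%, with 125 and 61 shallower nuclei left out. The median depth before thinning was 19968 and 29818 UMIs in inhibitory neurons, and 3315.5 and 4171 UMIs in microglia. *Adar* was found in 14.8% and 17.1% of microglia after thinning, and in 24.8% and 29.2% before it.

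Among inhibitory neurons, *Adarb2* followed the origin of the cells, which was read from markers without the 3 genes. In the subtype of caudal origin its level was 8883 CPM in PS19 and 9723 CPM in PZKO. In the subtype of medial origin, which includes parvalbumin and somatostatin interneurons, it was 6.15 and 6.19 CPM. Another subtype, led by *Zfhx3* and *Rmst*, had 306 and 686 CPM. The other members differed far less between these subtypes. *Adar* stood at 111 and 119 CPM in the caudal and 110 and 131 CPM in the medial subtype, and *Adarb1* at 140 and 136 CPM in the caudal and 169 and 173 CPM in the medial subtype.

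Excitatory neurons were divided in the same way. Dentate granule neurons, marked by the transcription factor *Prox1*, had 1610 CPM of *Adarb2* in PS19 and 1650 CPM in PZKO. A cluster led by *Synpo2* and *Tcf7l2*, of 57 and 72 nuclei, had 3601 and 4613 CPM. All other excitatory subtypes were at or below 63.7 CPM, and the pyramidal neurons of CA1 (5.33 and 15.7 CPM) and CA3 (5.57 and 12.3 CPM) were near the level of medial interneurons. The *Synpo2* cluster was also the highest for *Adarb1*, with 821 and 916 CPM, whereas 152 and 176 CPM were found in CA3 and 155 and 164 CPM in dentate granule neurons. *Adarb1* was lowest in CA1, with 52.8 and 62.3 CPM, and in the subiculum, with 68.3 and 79.5 CPM. This CA1 level lay below that of choroid plexus nuclei. *Adar* varied less, from 79.1 and 84.1 CPM in CA1 to 138 and 149 CPM in the *Synpo2* cluster.

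The *Synpo2* cluster expressed the vesicular glutamate transporter *Slc17a6* at 189 CPM in PS19 and 176 CPM in PZKO. It had less of *Slc17a7*, the transporter of cortical and hippocampal excitatory neurons, with 68.5 and 51.2 CPM. Dentate granule neurons had 239 and 219 CPM of *Slc17a7*. The *Synpo2* cluster is described here by its leading genes and is given no cell type.

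**Figure D2:**
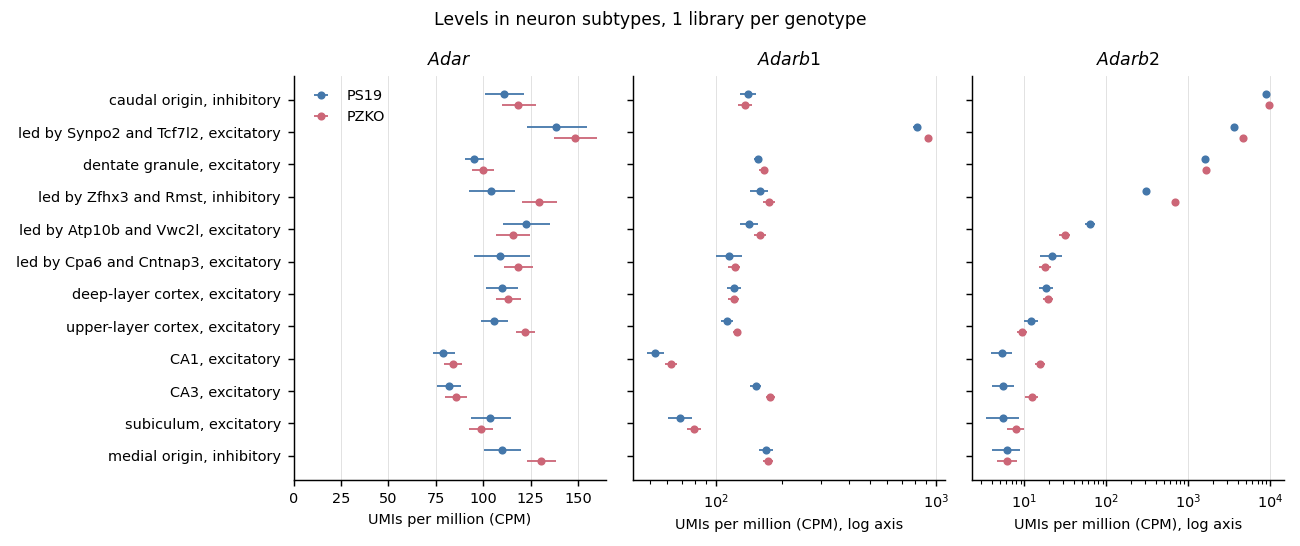
Levels of the 3 genes in CPM in 12 neuron subtypes, PS19 in blue and PZKO in red, as points for 1 library each with 95% Poisson intervals. The axes of *Adarb1* and *Adarb2* are logarithmic. For *Adarb2*, the caudal subtype, the *Synpo2* cluster and dentate granule neurons stand at 1610 CPM or more in both libraries, while the medial subtype lies near 6.2 CPM.

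Subclusters of inhibitory neurons, made without the 3 genes, gave a finer order for *Adarb2*. Interneurons with *Cck*, a neuropeptide of basket cells, had 16570 CPM in PS19 and 20260 CPM in PZKO. *Vip* interneurons had 13080 and 13270 CPM. Those with *Lamp5* split into a subcluster led by *Kit* and *Egfr*, with 5882 and 6683 CPM, and a subcluster led by *Vcan* and *Hapln1*, with 1160 and 1170 CPM. Thus these subclusters, which the markers named as caudal, differed among themselves by more than the libraries did. The *Vcan* and *Hapln1* subcluster also held *Lhx6*, a transcription factor of medial interneurons, at 99.3 and 89.5 CPM. Its origin is thus not settled by these markers, but it counts as caudal in the pooled values below. In the subcluster led by *Kit* and *Egfr*, *Lhx6* had 0 UMIs in each library. A subcluster led by *Rmst* and *Tcf7l2* had 986 to 1191 CPM of *Adarb2* over the libraries, a range that overlaps the *Vcan* and *Hapln1* subcluster. A subcluster led by *Cpa6* and *Ano2* had 23.8 to 26.6 CPM. Neither is part of the pooled caudal and medial values below.

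Medial subclusters were low. *Adarb2* stood at 3.48 and 5.74 CPM in parvalbumin interneurons, and at 4.15 and 6.76 CPM in somatostatin interneurons led by *Lama4*. Somatostatin interneurons led by *Pappa* had 13.4 and 15.1 CPM. Pooled, the caudal subclusters had 10650 CPM and the medial ones 7.32 CPM in PS19, a 1454-fold difference (95% counting interval 1041 to 2100). In PZKO they had 11400 and 8.58 CPM, a 1329-fold difference (1055 to 1699). The caudal and medial pools held 185 and 200 of the inhibitory nuclei of PS19, and 174 and 246 of those of PZKO. The medial levels lay below the 72.0 and 73.7 CPM estimated for free RNA in inhibitory neurons, so the estimate was too high for these nuclei. It cannot separate expression from free RNA at such levels. No expression was read from the medial levels, and these folds compare counts only. *Adar* differed 0.929-fold in PS19 and 0.944-fold in PZKO between the same nuclei, with intervals that included no difference. For *Adarb1* the values were 0.950-fold (0.849 to 1.06) and 0.860-fold (0.785 to 0.943). Among the 551 inhibitory nuclei of PS19, 215 held at least 1 UMI of *Adarb2* and none of *Lhx6*, 144 held *Lhx6* and no *Adarb2*, and 31 held both. In PZKO these were 203, 186 and 59 of 611 nuclei.

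**Figure D3:**
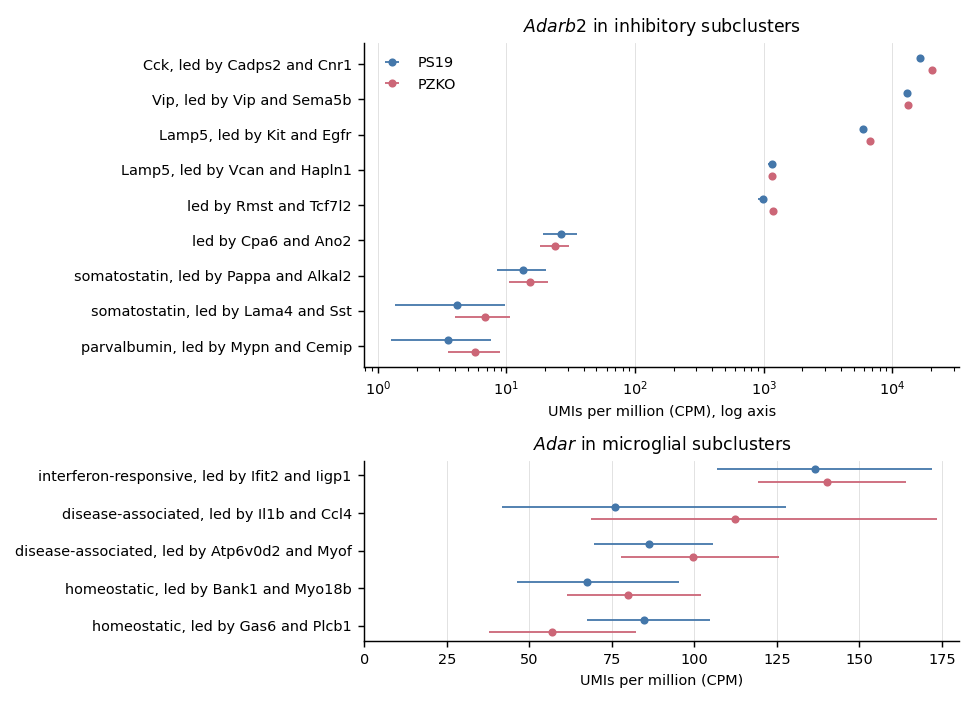
*Adarb2* in subclusters of inhibitory neurons on a logarithmic axis (top) and *Adar* in subclusters of microglia on a linear axis (bottom), in CPM, with PS19 in blue, PZKO in red and 95% Poisson intervals. *Adarb2* runs from 3.48 CPM in parvalbumin interneurons to 20260 CPM in *Cck* interneurons, and the interferon-responsive subcluster has the highest *Adar* level in each library.

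Between the genotypes, ratios of the 3 genes were small in the 5 main classes. A ratio was read as a difference in size where it reached 0.5 on the log2 scale in either direction and the class held at least 50 UMIs of the gene. Among all genes with 50 UMIs, this was so for 13.9% in excitatory neurons, 13.2% in inhibitory neurons, 13.6% in microglia, 13.8% in astrocytes and 12.4% in oligodendrocytes. Of the 15 combinations of the 3 genes with these 5 classes, 1 reached it with enough UMIs, *Adarb2* in oligodendrocytes. *Adarb2* in microglia, with fewer than 50 UMIs over both libraries, was under the minimum. Over all 13 classes, 28 of 39 combinations had enough UMIs and 5 reached 0.5. The other 4 rested on 127 UMIs or fewer. *Adarb1* had a log2 ratio of 0.53 in ependymal nuclei, where 18.8% of all genes reached 0.5, and of -0.59 (-1.26 to 0.11) in vascular leptomeningeal nuclei, where 24.9% did. *Adarb2* had a log2 ratio of -0.80 in pericytes or mural nuclei, where 27.4% of all genes reached 0.5. In choroid plexus nuclei it was 4.01, where 16.0% did. Without the nucleus with the most UMIs in each library, the choroid plexus levels were close, at 3.045 CPM in PS19 and 3.22 CPM in PZKO. The pericyte or mural level was then still lower in PZKO, at 65.2 and 16.9 CPM, from 24 and 8 UMIs.

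*Adar* had a slightly higher level in PZKO in each of these 5 classes. The log2 ratio of PZKO over PS19 was 0.22 in inhibitory neurons (95% interval 0.12 to 0.32) and 0.13 in excitatory neurons (0.08 to 0.18). Among excitatory subtypes the interval lay above 0 in upper-layer cortex (0.21, 0.10 to 0.32) and included 0 in all others. With equal weights of the subtypes the excitatory ratio was 0.0614, and a part of subtype shares was not tested. Among inhibitory subtypes the interval included 0 in the caudal one (0.10, -0.07 to 0.27) and lay above 0 in the others. The class ratio was 0.17 (-0.06 to 0.40) in microglia, 0.10 (-0.07 to 0.27) in astrocytes and 0.12 (-0.105 to 0.34) in oligodendrocytes, intervals that include 0. In the other classes the intervals also included 0. The ratio was positive in choroid plexus nuclei (0.24) and T cells (0.37). It was negative in ependymal (-0.59), endothelial (-0.15), pericyte or mural (-0.15), vascular leptomeningeal (-0.09), precursor (-0.03) and Cajal-Retzius nuclei (-0.01). For comparison, the median log2 ratio of all genes was -0.04 in inhibitory neurons, -0.08 in excitatory neurons and -0.02 in microglia. *Adarb1* had a log2 ratio of 0.13 in excitatory neurons (0.09 to 0.17) and of 0.07 in inhibitory neurons (-0.02 to 0.15). Genes with a body of 100 kb or longer, among them *Adarb1* and *Adarb2*, had median log2 ratios between 0.09 and 0.13 in the 5 classes. In excitatory neurons this median was 0.087, and the interval of *Adarb1* there began at 0.093. That interval covers counting error only and not the spread among long genes. Of the 2626 long genes with enough UMIs there, 12.45% reached 0.5 in either direction. The ratio of *Adarb1* there ranged from 0.0405 to 0.2245 over 14 alternatives of processing. Whether *Adarb1* differed from other long genes was not tested.

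*Adarb2* was lower in PZKO in the excitatory class taken whole, with a log2 ratio of -0.41 (-0.43 to -0.39). Within dentate granule neurons it was 0.04 (0.01 to 0.06), and within the *Synpo2* cluster 0.36 (0.32 to 0.39). Dentate granule neurons made up 37.0% of excitatory nuclei in PS19 and 17.5% in PZKO, or 1009 and 513 nuclei. They supplied 74.3% and 46.1% of the *Adarb2* UMIs of the class. The *Synpo2* cluster held 2.09% and 2.45% of the nuclei and 23.9% and 51.0% of these UMIs. With equal weights of the subtypes the ratio was 0.25, and without dentate granule neurons it was 0.40. Without the *Synpo2* cluster as well it was 0.0525. The direction for the whole class thus changed when dentate granule neurons were left out or the subtypes were weighted equally. Why it changed was not tested. The class also held nuclei like those of upper-layer cortex (12.3% in PS19 and 21.3% in PZKO) and deep-layer cortex (10.9% and 13.4%). With 1 library per genotype, a difference in genotype and a difference in the tissue taken cannot be told apart for these shares. In the subtype led by *Atp10b* and *Vwc2l*, *Adarb2* had 63.7 and 31.1 CPM, a log2 ratio of -1.03. These came from 202 and 177 UMIs, of which 45 and 21 were in 1 nucleus of each library. The PZKO level lay below the 44.9 CPM estimated for free RNA in excitatory neurons of that library.

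Inhibitory neurons showed the same pattern. Their log2 ratio for *Adarb2* was -0.19 (-0.21 to -0.17), while that within the caudal subtype was 0.13 (0.11 to 0.15). Caudal nuclei made up 42.3% of inhibitory nuclei in PS19 and 32.1% in PZKO. With equal weights of the subtypes the ratio was 0.18. In the subtype led by *Zfhx3* and *Rmst* the log2 ratio was 1.17 (1.06 to 1.27). The median nucleus of this subtype held 0 UMIs of *Adarb2* in each library. The subcluster led by *Rmst* and *Tcf7l2*, at 986 to 1191 CPM over the libraries, held 26 nuclei in PS19 and 78 in PZKO. The part of its share in the ratio of the subtype was not tested. In CA1 and CA3, *Adarb2* was higher in PZKO by log2 ratios of 1.55 and 1.14, from 51 and 217 UMIs in CA1 and from 46 and 127 UMIs in CA3. The nucleus with the most UMIs held 10 and 32 of them in CA1, and 14 and 50 in CA3. The levels in CA1 and CA3 lay below the 34.9 CPM of PS19 and 44.9 CPM of PZKO estimated for free RNA in excitatory neurons, so the estimate was too high there. It was too high in other classes as well, since it gave 62.4 CPM of *Adarb2* in astrocytes of PS19, where 5.31 CPM were measured. The estimate cannot separate expression from free RNA at such levels, and no expression was read from them. Oligodendrocyte precursors differed by a log2 ratio of -0.04 (-0.11 to 0.02).

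**Figure D4:**
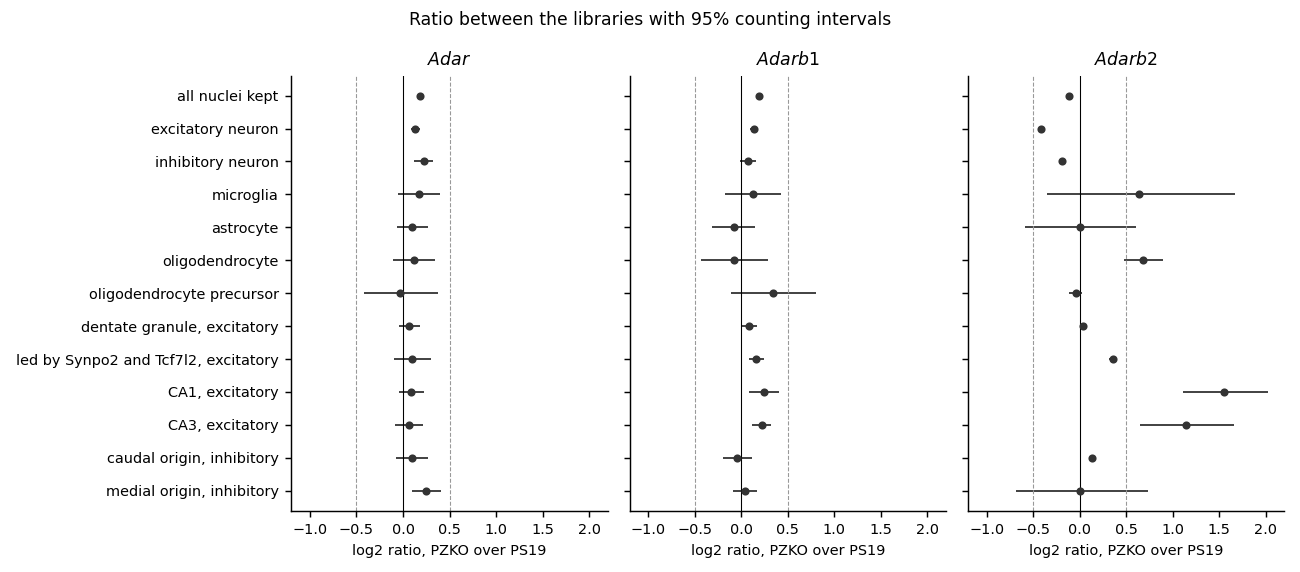
Log2 ratio of PZKO over PS19 for the 3 genes over all nuclei, in 6 classes and in 6 neuron subtypes. Points are ratios, bars are 95% counting intervals without replicate error, and dashed lines mark 0.5 in either direction. *Adarb2* lies at -0.41 in the excitatory class and at 0.04 in dentate granule neurons.

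In microglia, *Adar* differed between states. Interferon-responsive microglia, a subcluster led by *Ifit2* and *Iigp1* and made without the 3 genes, had 136.5 CPM of *Adar* in PS19, from 72 UMIs in 118 nuclei. Other microglia had 81.9 CPM, in 832 nuclei. The log2 difference was 0.74 (95% counting interval 0.33 to 1.13). In PZKO the subcluster had 140.3 CPM in 202 nuclei and the others 83.3 CPM in 556 nuclei, with a log2 difference of 0.75 (0.44 to 1.07). With finer subclusters, of 48 and 75 interferon-responsive nuclei, the difference was 0.72 in PS19 and 1.45 in PZKO. The level in the subcluster was thus close between the libraries in the coarser subclustering and less so in the finer one. The finer level was 143 CPM in PS19 (97.0 to 202.7, from 31 UMIs) and 235 CPM in PZKO (188.2 to 290.5, from 86 UMIs). These counting intervals overlap. For *Adarb1* the intervals included 0, with log2 differences of 0.20 (-0.40 to 0.76) and -0.18 (-0.64 to 0.27). Genes for sensors of double-stranded RNA were also higher in the same subcluster, which their own counts may have helped to define. *Eif2ak2*, which encodes the kinase PKR, differed by 1.41 and 0.98, and *Ifih1*, which encodes the sensor MDA5, by 0.77 and 1.01. Disease-associated microglia led by *Atp6v0d2* had 86.3 and 99.5 CPM of *Adar*. Homeostatic microglia led by *Gas6* had 84.6 and 56.9 CPM. *Ttr* in microglia stood at 787 CPM in PS19 and 96.2 CPM in PZKO, and its part in these values was not tested.

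In astrocytes, *Adarb1* differed between 2 clusters. The cluster with *Gfap*, the filament protein of reactive and white matter astrocytes, among its leading genes had 41.8 CPM in PS19 and 43.3 CPM in PZKO. Other astrocytes, led by *Gpc5*, had 21.1 and 19.8 CPM. The difference was 1.99-fold in PS19 (1.5 to 2.65) and 2.19-fold in PZKO (1.74 to 2.77). *Adar* differed by 1.12-fold and 1.14-fold, with intervals that included no difference.

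*Adarb2* in oligodendrocytes was higher in PZKO by a log2 ratio of 0.68 (0.48 to 0.89), from 303 UMIs against 549. The libraries filled different clusters. The cluster led by *Opalin*, of 751 nuclei in PS19 and 1371 in PZKO, had 46.5 and 63.1 CPM, a log2 ratio of 0.44. The cluster led by *Il33*, of 1357 and 556 nuclei, had 34.5 and 56.6 CPM, a log2 ratio of 0.72. The cluster led by *Enpp6*, *Anln* and *Hapln2* had 4.73 and 7.82 CPM, and the other oligodendrocytes exceeded it 8.43-fold in PS19 (4.38 to 18.6) and 7.89-fold in PZKO (4.66 to 14.5). Free RNA, estimated from markers of other classes, would give 44.3 CPM in PS19 and 34.1 CPM in PZKO over all oligodendrocytes. This estimate is of the size of the measured 32.7 and 52.5 CPM, but it exceeded the measured level in astrocytes. It also exceeded the 4.73 and 7.82 CPM of the *Enpp6* cluster, so it was too high for those nuclei. The estimate cannot separate expression from free RNA at such levels. The log2 ratio over all oligodendrocytes was -0.12 with doublets kept. The direction of *Adarb2* in oligodendrocytes therefore depended on the treatment of doublets.

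The genes whose levels over 46 points (23 classes and subtypes in each library) were most like those of each member were named by Pearson's r on log2(CPM + 1), as a description in which the points share their 2 libraries. For *Adar*, the closest of 13978 genes were *Herc1* (r = 0.86), *Rtn3* (0.85), *Pi4ka* (0.84) and *Atp8a2* (0.81). For *Adarb1* they were *Ergic1* (0.80), *Upp2* (0.80), *Ttc19* (0.78), *Mirg* (0.78) and *Fgf9* (0.77). *Adarb2* had weaker matches, in *Sema5a* (0.70), *Plppr1* (0.68), *Prox1os* (0.68), *Myt1* (0.66) and *Lhfpl3* (0.64). The r between *Adar* and *Adarb1* was 0.66, and *Adarb2* had an r of 0.31 with *Adar* and 0.42 with *Adarb1*.

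Other genes of the pathway were read as lists, each by its count past 0.5 on the log2 scale and its median. The lists were written with earlier results of these data known, so their counts are a description and not independent support. Among the 5 main classes, sensors of double-stranded and Z-form RNA had their highest count past 0.5 in microglia. There 7 of 18 genes with 50 UMIs were higher in PZKO and 2 lower, at a median of 0.33, beside a background of 13.6% and a median of -0.02 over all genes. *Eif2ak2* had 139.5 CPM in PS19 and 203.9 CPM in PZKO, a log2 ratio of 0.55. These are values of the whole class, of which the interferon-responsive subcluster made up 118 of 950 nuclei in PS19 and 202 of 758 in PZKO. Within that subcluster *Eif2ak2* had 292 and 305 CPM, and in other microglia 110 and 154 CPM. *Ifih1* had 75.7 and 121 CPM (0.68), and *Oasl2*, an oligoadenylate synthetase-like gene, had 64.1 and 119 CPM (0.89). *Casp8*, a protease of cell death pathways, had 142 and 147 CPM (0.05). The 2 lower genes, named after their values were seen, were *Zbp1*, which PZKO mice lack, and *Mavs*, the adaptor of cytosolic RNA sensors. *Zbp1* had 14.7 and 5.94 CPM, and *Mavs* 36.0 and 23.2 CPM. Interferon-stimulated genes in microglia were higher for 16 of 32 and lower for 0, with a median of 0.50. In neurons the sensing list had 1 of 14 genes higher and 2 lower in the excitatory class (median 0.02), and 0 of 7 past 0.5 in the inhibitory class (median -0.09). Astrocytes had 0 of 12 past 0.5, and oligodendrocytes 1 higher and 1 lower of 10. The shares over all genes were 13.9% and 13.2% in excitatory and inhibitory neurons, 13.8% in astrocytes and 12.4% in oligodendrocytes.

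Of partners and regulators of editing, such as RNA-binding proteins that compete with or recruit the enzymes, few were past 0.5. In excitatory and inhibitory neurons and in astrocytes 0 of 19 genes were past it, and in microglia 0 of 18. Over all genes the shares were 13.9%, 13.2%, 13.8% and 13.6%. Among genes with at least 200 UMIs they were 9.19%, 7.62%, 8.33% and 6.45%. With so few genes, a count of 0 is not read as a result about the list. In excitatory neurons the RNA-binding protein gene *Strbp* had 727 and 777 CPM (0.10), and *Zfr* 294 and 282 CPM (-0.06). Oligodendrocytes had 1 of 19 lower, beside 12.4% of all genes. It was *Srsf9*, a splicing factor gene with 10.9 and 7.65 CPM, named after its values were seen.

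Recoded substrates are transcripts in which editing changes the encoded protein. In excitatory neurons 1 of 24 was higher and 0 lower, with a median of -0.00, beside 13.9% of all genes. *Gria2*, whose glutamine codon at the pore is edited by ADAR2, had 1931 CPM in PS19 and 1787 CPM in PZKO (log2 ratio -0.11). The kainate receptor subunit *Grik2* had 1169 and 1074 CPM (-0.12), and *Cadps*, a gene of vesicle exocytosis, 1087 and 1226 CPM (0.17). The higher gene was the kainate receptor subunit *Grik1*, named after its values were seen, with 39.1 and 80.5 CPM (1.04). Inhibitory neurons had 1 of 24 higher and 0 lower (median 0.05). Microglia had 3 of 21 higher and 1 lower, astrocytes 2 of 24 higher and 1 lower, and oligodendrocytes 1 higher and 1 lower of 24. Over all genes the shares were 13.2% in inhibitory neurons, 13.6% in microglia, 13.8% in astrocytes and 12.4% in oligodendrocytes.

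Other deaminases of nucleic acids were few. In microglia 3 had 50 UMIs and 0 were past 0.5, beside 13.6% of all genes. *Apobec1*, a cytidine deaminase of mRNA, had 791 CPM in PS19 and 586 CPM in PZKO (-0.43). *Apobec3*, a restriction factor of retroviruses, had 229 and 236 CPM (0.04). In excitatory neurons 0 of 4 were higher and 3 were lower, beside 13.9% of all genes. The levels were 2.80 CPM or less in these 3. *Adat1*, a deaminase of transfer RNA, had 29.5 and 24.6 CPM there (-0.26).

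**Figure D5:**
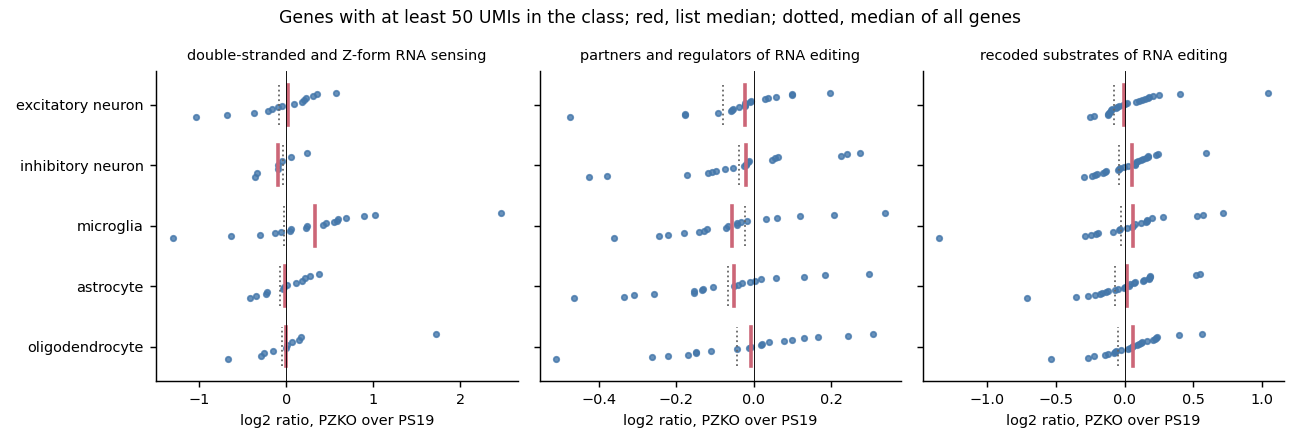
Log2 ratio of PZKO over PS19 of the genes of 3 lists in 5 classes, for genes with at least 50 UMIs in the class. Each point is a gene, the red line is the median of the list, the dotted line is the median of all genes, and the axes of the panels differ. The sensing list in microglia has its median at 0.33, while the partners of editing lie between -0.51 and 0.34 in all 5 classes.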

How the data were processed

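The authors made the matrices with Cell Ranger on mm10, as UMI counts for each gene in each nucleus, and the deposited values are whole-number counts without normalization or correction for ambient RNA. The submitters' processing notes name version 7.0.1, and the matrix headers 8.0.1. Whether intronic reads were counted is not given in the sources used here. Nuclei with at least 600 UMIs, 300 genes and at most 5% mitochondrial UMIs were kept. The highest Scrublet scores were removed as doublets at 0.8% per 1000 nuclei (8.37% of PS19 and 8.11% of PZKO nuclei), because its own threshold marked 642 and 4 nuclei. Clustering used scanpy 1.11.5 and leidenalg 0.10.2 at a resolution of 1 on 2000 variable genes and 30 components, without the 3 members, *Zbp1*, Y-linked genes and the sensing list, which was kept for subclusters. Clusters were named from markers, and 496 and 453 nuclei stayed unnamed. The thresholds for this were set after the clusters were seen. Summed UMIs per class and library were scaled to CPM. Intervals are exact (Poisson for levels, conditional or plain binomial for ratios and shares) at 95% and cover counting error only. Gene positions came from GENCODE M21. Free RNA in a class was estimated from markers of other classes and the profile of the library. Of each list, up to 4 members with the most UMIs in the class were named, and some genes that this rule and the likeness measure name are not reported here. The members and lists were chosen with earlier results of these data known. Alternatives changed filters, doublet removal, clustering, ambient subtraction, scaling (edgeR 4.0.16, DESeq2 1.42.0 in R 4.3.3), weights of subtypes, thinning and the UMI minimum. The sources state both that animals were processed separately and that 5 were pooled per library. With 1 library per genotype, no test was made between genotypes.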

Additional observations from a re-analysis of the deposited data

How the results depend on the processing

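Of 174 alternative values of the 15 log2 ratios between the libraries, 148 lay within the interval of the reported value and 26 outside it. For *Adarb2* in excitatory neurons (-0.41) the log2 ratio was -0.37 with a stricter filter on nuclei, -0.37 without removal of doublets, -1.03 at a resolution of 0.5, -0.46 after subtraction of the library-wide profile, -0.33 with TMM, -0.32 with DESeq2 size factors, -0.70 as a mean over nuclei and 0.25 with equal weights of the subtypes. Chosen after seeing the data, leaving out dentate granule neurons gave 0.40, and leaving out the *Synpo2* cluster as well gave 0.0525. For *Adarb2* in inhibitory neurons (-0.19) it was -0.14 without removal of doublets, -0.12 with each library clustered on its own, -0.0676 at a resolution of 0.5, -0.14 with TMM, -0.13 with DESeq2, -0.14 as a mean over nuclei and 0.18 with equal weights. *Adarb2* in oligodendrocytes turned from 0.68 to -0.12 without removal of doublets, and the cause was not tested. After profile subtraction no *Adarb2* count was left in at least 1 library in oligodendrocytes, astrocytes and microglia, so no ratio was had there. *Adarb1* in excitatory neurons (0.13) moved to 0.0405 at a resolution of 0.5, 0.21 with TMM, 0.22 with DESeq2 and 0.0853 as a mean over nuclei, and in inhibitory neurons (0.07) to 0.19 at a resolution of 0.5. *Adar* in excitatory neurons (0.13) moved to 0.21 with TMM, 0.22 with DESeq2 and 0.0614 with equal weights.

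Levels of *Adarb2* in inhibitory neurons, in PS19 and PZKO, were 3729 and 3308 CPM with the stricter filter, 3479 and 3067 without a filter, 3189 and 2902 without removal of doublets, 3376 and 3221 at a resolution of 0.5, 3734 and 3279 after profile subtraction, and 3259 in PS19 clustered on its own. In oligodendrocyte precursors they were 1570 and 1595 CPM with the stricter filter and 1877 and 1864 without removal of doublets. At a resolution of 0.5, *Adarb1* stood at 257 and 292 CPM in inhibitory and at 119 and 123 CPM in excitatory neurons, and the cause was not tested. Thinned to 1000 UMIs and unthinned, *Adar* was found in 8.50% and 24.8% of PS19 microglia and in 8.86% and 29.2% of PZKO microglia, and *Adarb1* in 12.4% and 81.2% of PS19 and 12.5% and 89.9% of PZKO excitatory neurons. *Adarb2* was found in 44.7% and 42.9% of inhibitory nuclei unthinned. At a subcluster resolution of 1 the log2 difference of *Adar* between interferon-responsive and other microglia of PZKO was 1.45. With no minimum of UMIs and with a minimum of 200, the genes past 0.5 numbered 8389 and 1315 in excitatory neurons, 8731 and 818 in inhibitory neurons, 7611 and 390 in microglia, 7732 and 814 in astrocytes, and 7524 and 656 in oligodendrocytes. No paired analysis was possible because each genotype has 1 library, and for the same reason no replicate could be left out.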
